A study of Mus musculus with 10 samples.

Results

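Trh, the gene of thyrotropin-releasing hormone, was 1 of 25965 features measured by RNA-seq in male mouse embryonic stem cells (mESCs). It was chosen from the measured values, as the well-expressed feature with the largest rise under suspension culture, so its difference between the culture methods is given as a description and not as a test. The cells were C57/Bl6 mESCs in 2i/LIF, a serum-free medium with inhibitors of MEK and GSK3 in which mESCs stay naive. There were 2 lines, derived independently under the conditions of the study, Keniry2022, and each was split at passage 0 (p0). Keniry2022 grows cells in suspension with daily passaging, and the labels call it New or Off. Mulas2019, which the labels call Old or On, grows cells attached to gelatin and passages them every other day. This reading of the labels follows the methods of the study. Cells were sampled at p0 and, under each method, at passages 10 and 20 (p10 and p20), which gave 5 groups of 2 libraries, with 1 library per line. Substrate, plate type, plating density, volume of medium and passaging interval all differ between the methods, so their parts in any difference cannot be told apart. The p20 Keniry2022 cells and the p10 Mulas2019 cells had spent equal days in culture. The 4 p10 and p20 libraries of a method are 2 lines at 2 passages and not separate derivations.

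Thyrotropin-releasing hormone is a tripeptide. Neurons of the hypothalamus release it, and it acts on the pituitary, where it stimulates secretion of thyrotropin and prolactin. The gene encodes a long precursor that holds several copies of a short progenitor unit, each set between pairs of basic residues. Prohormone convertases cut at these pairs, carboxypeptidases trim the ends, glutaminyl cyclase closes the first residue into a ring, and the enzyme PAM amidates the last. The hormone signals through receptors coupled to G proteins and is cleaved outside the cell by a membrane peptidase. Thyroid hormone represses the gene in the hypothalamus, whereas CREB and STAT3 activate it.

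Trh (ENSMUSG00000005892) lies on the minus strand of chromosome 6, at chr6:92242061-92244650 in mm10. It spans 2590 bases, and its 1 transcript in GENCODE vM21 has 3 exons with 1384 bases in all. Exon 1 (92244548 to 92244650) is untranslated, exon 2 (92243672 to 92243887) holds the start of the coding sequence, and exon 3 (92242061 to 92243125) holds the rest of it and the 3′ UTR. No other feature of the table overlaps the span of Trh. The coding sequence has 256 codons. Within it, 5 copies of the progenitor unit were found in frame with a basic codon pair on both sides, all in exon 3. They are shown because they are what makes this RNA a hormone precursor. Capitals mark the codons of the unit and lower case the basic pairs, on the coding strand, from the GENCODE transcript.
unit 1: aaacgcCAGCATCCGGGCaaaagg
unit 2: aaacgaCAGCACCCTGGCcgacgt
unit 3: aagcggCAGCACCCTGGCaggcga
unit 4: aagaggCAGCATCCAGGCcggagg
unit 5: aaacgtCAGCATCCTGGCaaaagg
The capitals lie at chr6:92243094-92243105, chr6:92242998-92243009, chr6:92242863-92242874, chr6:92242809-92242820 and chr6:92242716-92242727, and the units begin at codons 77, 109, 154, 172 and 203. Reads were assigned to the gene as a whole, so the values below do not show which stretch of the RNA was sequenced.

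The 250 bases before the start of Trh (RefSeq, GRCm38.p6, chr6:92244651-92244900, minus strand, written 5′ to 3′) are shown because the known regulators of the gene act there. Capitals mark the element TGACCTCA, the sequence that CREB and thyroid hormone receptors are known to share in this promoter, and a TATAA box.
promoter: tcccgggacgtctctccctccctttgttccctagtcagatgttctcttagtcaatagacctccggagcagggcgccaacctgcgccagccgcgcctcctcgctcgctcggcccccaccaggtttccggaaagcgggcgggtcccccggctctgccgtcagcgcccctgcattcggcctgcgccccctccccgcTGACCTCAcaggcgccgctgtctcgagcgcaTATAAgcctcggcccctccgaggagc
The window is 68.8% G or C and holds 25 CpG sites. On a search of both strands, TGACCTCA began 57 bases before the start and was present in 1.94% of 32851 RefSeq promoter windows of the same length. TATAA began 26 bases before the start (22.8% of windows) and GGGCGG, an element bound by SP1, 117 bases before it (32.7%). The full cyclic AMP element TGACGTCA (1.55% of windows) and the STAT element TTCNNNGAA (7.02%) had no match in this window. A match is a description of letters and not evidence of binding.

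Library totals, worked out from the deposited values, lay between 24053991 and 30236817 reads. Naive mESC markers (10 of 10 tested) summed to between 2578 and 4837 RPKM (reads per kilobase of exon, scaled to the library total). Of these 10, 5 were higher under Keniry2022, 1 was lower and 4 were not called, with Pou5f1 at a log2 difference of 0.40 and Klf4 at -0.40 (limma, adjusted p 0.000192 and 0.00365). Over all features tested, 25.9% were called higher and 25.5% lower. The 2 libraries of p0 stood apart from each other, with a median absolute log2 difference of 0.364 over 11561 features, against 0.0653 to 0.0869 in the other 4 groups. The summed level of 4 Y-linked genes (Ddx3y, Eif2s3y, Kdm5d and Uty) was 0.114 to 1.19 RPKM in 5 libraries and 34.2 to 62.8 RPKM in the other 5. All are labelled male, and male mESC lines are known to lose the Y chromosome at times. From DNA sequencing of these cells, the study reports that a line lost its Y chromosome during derivation, before the culture methods were applied. Loss at that stage would leave few Y-linked reads in the same line in every group. The 5 libraries with few such reads were those labelled replicate 1, except in p20 Keniry2022, where it was replicate 2. Statements below that follow a line through p20 Keniry2022 are therefore given in both orders.

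Trh RNA was abundant in the freshly derived cells, more abundant after culture under Keniry2022 and less abundant after culture under Mulas2019. At p0 its level was 5.22 in replicate 1 and 4.99 in replicate 2, in log2 RPKM. Under Keniry2022 it was 5.48 and 6.18 at p10, and 5.82 and 5.90 at p20. Under Mulas2019 it was 2.63 and 3.52 at p10, and 4.16 and 4.43 at p20. All 4 Keniry2022 libraries lay above both p0 libraries, and all 4 Mulas2019 libraries lay below them. The share of all features with such an order was not counted, here or for the groups of 2 libraries compared below. These levels rest on many reads, from 208 in p10 Mulas2019 replicate 1 to 2889 in p10 Keniry2022 replicate 2. As RPKM the lowest library was at 6.20 (95% Poisson interval 5.39 to 7.10) and the highest at 72.3 (69.7 to 75.0). The 2 p0 libraries were at 37.2 (35.2 to 39.4) and 31.8 (30.0 to 33.7). The intervals of the 2 p10 Mulas2019 libraries, 5.39 to 7.10 and 10.5 to 12.6, do not meet. The 2 libraries of a group are separate lines. Intervals cover counting error only, because reads are not independent molecules. Ranked by log2 RPKM among all 25965 features, Trh stood between place 778 and place 1410 in the Keniry2022 libraries, at places 1945 and 2059 at p0, and between places 2996 and 7094 in the Mulas2019 libraries. In bulk RNA, fewer cells that express a gene and less RNA per cell cannot be told apart.

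**Figure D1:**
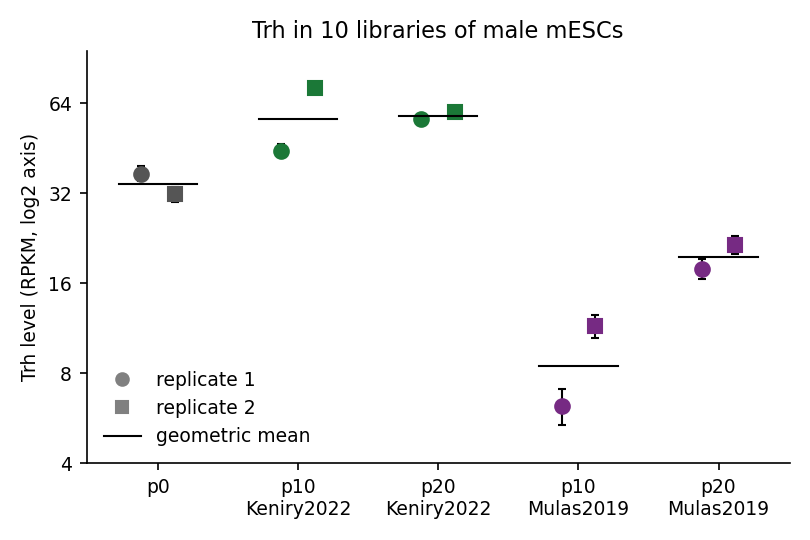
Level of Trh in RPKM, on a log2 axis, in each of the 10 libraries by group, with circles for replicate 1, squares for replicate 2, error bars for the 95% Poisson interval and a line for the geometric mean of each group. All 4 Keniry2022 libraries sit above both p0 libraries (37.2 and 31.8), and all 4 Mulas2019 libraries sit below them, the lowest at 6.20.

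Against p0, mean Trh was 1.65-fold higher at p10 and 1.69-fold higher at p20 under Keniry2022, which are log2 differences of 0.72 and 0.76. Under Mulas2019 it was at 0.245 of the p0 level at p10 (log2 difference -2.03) and at 0.570 of it at p20 (-0.81). The drop under Mulas2019 was thus larger at p10 than at p20. In order of group means the log2 levels were 5.86 (SD 0.0541, n = 2) at p20 Keniry2022, 5.83 (SD 0.496) at p10 Keniry2022, 5.11 (SD 0.161) at p0, 4.30 (SD 0.189) at p20 Mulas2019 and 3.08 (SD 0.630) at p10 Mulas2019. The 2 Keniry2022 groups overlapped and did not differ beyond their spread. Each other pair of neighbours in this order had no overlap, but with 2 libraries a group such a separation is weak evidence of a difference. The mean of the 4 cultured groups did not pass the test against p0 in the model of all 10 libraries (limma, log2 difference -0.34, SE 0.244, adjusted p 0.284, 95% interval -0.90 to 0.22). In that test 32% of 11561 features were called. It sets groups above p0 and groups below p0 into 1 mean, and the p0 libraries with which all groups were compared are the same.

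The difference between the methods, which chose the gene, was present at both passages. Mean log2 levels differed by 2.75 at p10 (6.72-fold), by 1.57 at p20 (2.96-fold), and by 2.78 (6.89-fold) when p20 Keniry2022 was set against p10 Mulas2019, which are matched in days. In none of these comparisons did the groups overlap, and the gap between the lowest Keniry2022 and the highest Mulas2019 library was 1.95, 1.40 and 2.30. Pooled over both passages, the Keniry2022 libraries had a mean of 5.84 (SD 0.289, n = 4) and the Mulas2019 libraries of 3.69 (SD 0.799, n = 4), which differ by 2.16 or 4.46-fold. Mean RPKM was 58.3 and 14.3. In each of the 4 comparisons Trh had the largest rise among 6232 tested features with a mean log2 level of at least 3. For the pooled comparison this follows from the choice of the gene, and the others draw on the same libraries. All 4 libraries of Keniry2022 lay above all 4 of Mulas2019 in 23.1% of the 11654 features tested, and limma called 51.5% of them between the methods at an adjusted p of 0.05. Next to Trh in rank, but well below it in size, came Zfp459, at 1.25 (4.57 under Keniry2022 and 3.32 under Mulas2019), and Cbr3, at 1.21 (4.38 and 3.17). One feature at a lower mean level, 2410057H14Rik, had a difference as large, 2.16 (0.78 and -1.39).

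**Figure D2:**
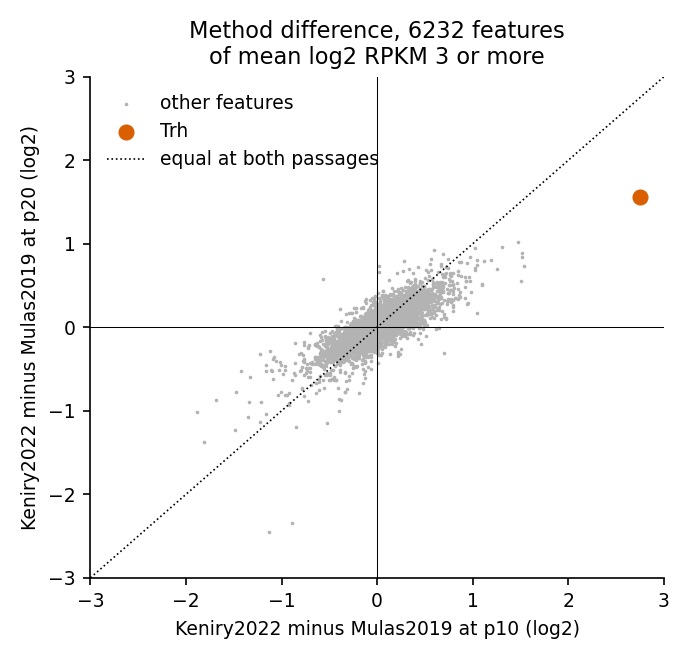
Difference between Keniry2022 and Mulas2019 in log2 RPKM at p10 (horizontal axis) and at p20 (vertical axis) for 6232 features with a mean log2 of 3 or more, 1 point a feature, with a dotted line where both are equal. Trh, at 2.75 and 1.57, lies to the right of and above all other features.

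The passages were compared within each method. The gene was not ranked by this contrast, but the same p10 and p20 libraries gave the difference that chose it. The p-values of this contrast and of the interaction below are therefore not free of that choice. Under Mulas2019, Trh was at 2.63 and 3.52 at p10 and at 4.16 and 4.43 at p20, so both p20 libraries lay above both p10 libraries. The increase of 1.22 (2.33-fold, SE 0.308, 95% interval 0.50 to 1.93) had an unadjusted p of 0.00441 in limma's moderated test, and it did not pass the threshold after adjustment over 11561 features (adjusted p 0.46). In this contrast limma called 0% of features, with 772 at an unadjusted p below 0.05. Of all features tested, 97 had a smaller p than Trh and 19 a larger absolute change. Without p10 Mulas2019 replicate 1, the library with the lowest Trh, the increase was 0.77. Under Keniry2022 the p10 and p20 libraries overlapped, and the change was 0.04 (SE 0.308, adjusted p 1, 95% interval -0.68 to 0.75), with 0% of features called and 289 at an unadjusted p below 0.05. Its sign turned when p10 Keniry2022 replicate 1 was left out (-0.31) or p20 Keniry2022 replicate 2 was left out (-0.00).

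The passage changes of the 2 methods were then set against each other. The step from p10 to p20 took more days under Mulas2019, with passaging every other day, so the 2 changes cover unequal times. The change under Keniry2022 was lower than that under Mulas2019 by a log2 of 1.18 (difference -1.18, SE 0.436, 95% interval -2.19 to -0.17), with an unadjusted p of 0.0271 and an adjusted p of 1 in limma's test of the interaction. Limma called 0% of features for it, with 405 at an unadjusted p below 0.05, and 213 features had a smaller p than Trh. The interaction was -0.74 without p10 Mulas2019 replicate 1. The p0 pair enters the spread of this model, and Trh itself differed by less between the p0 libraries than between the 2 libraries of p10 under either method. The spread of the other features at p0 still bears on the adjusted p-values. Without the p0 libraries, that of the increase under Mulas2019 was lower but did not pass the threshold, as given at the end.

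Trh was also among the most variable genes within a method. Its SD over the 4 Mulas2019 libraries, 0.799, was exceeded by 0 of 6232 features with a mean log2 of at least 3, where the median SD was 0.0701. This SD spans 2 passages and 2 lines, so it takes in the step from p10 to p20 described above. Within the p10 and p20 groups of Mulas2019 the SD of Trh was 0.630 and 0.189. Over the 4 Keniry2022 libraries its SD was 0.289, 33 features had a larger one, and the median was 0.0617. By replicate number, replicate 2 was above replicate 1 in all 4 cultured groups and below it at p0. By Y-linked reads, the line with many was above the line with few in 3 of the 4 cultured groups and below it in p20 Keniry2022 (5.82 against 5.90) and at p0. By replicate number the methods differed by 2.84 and 2.65 at p10 and by 1.66 and 1.47 at p20, for replicates 1 and 2. With the p20 Keniry2022 libraries taken in the order of their Y-linked reads, the differences at p20 were 1.74 in the line with few such reads and 1.40 in the line with many. In every case both lines had the higher level under Keniry2022. Under Mulas2019 the increase from p10 to p20 was 1.53 in replicate 1 and 0.91 in replicate 2. Under Keniry2022 the change was 0.35 and -0.28 by replicate number, and 0.43 and -0.35 by Y-linked reads, so the lines moved in opposite directions in either order.

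Trh was compared in level with a list of other precursors of peptide hormones and neuropeptides. The list is a selection and does not hold every such gene. Among 66 precursors, Trh and 65 listed others in the table, Trh had the highest log2 RPKM in 9 of the 10 libraries. In p10 Mulas2019 replicate 1 it was second, at 2.63, to Adm2 (adrenomedullin 2, a vasodilator peptide) at 2.76. At p0 the next precursor was Kiss1, which encodes kisspeptin, at 3.41 and 3.19. Under Keniry2022 the next was Nmb (neuromedin B), Calca or Pmch, at between 2.10 and 2.25. Under Mulas2019 the highest other precursor was Adm2 or Calca, at between 2.75 and 2.89. No reads were found for 20 of the precursors in any library.

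**Figure D3:**
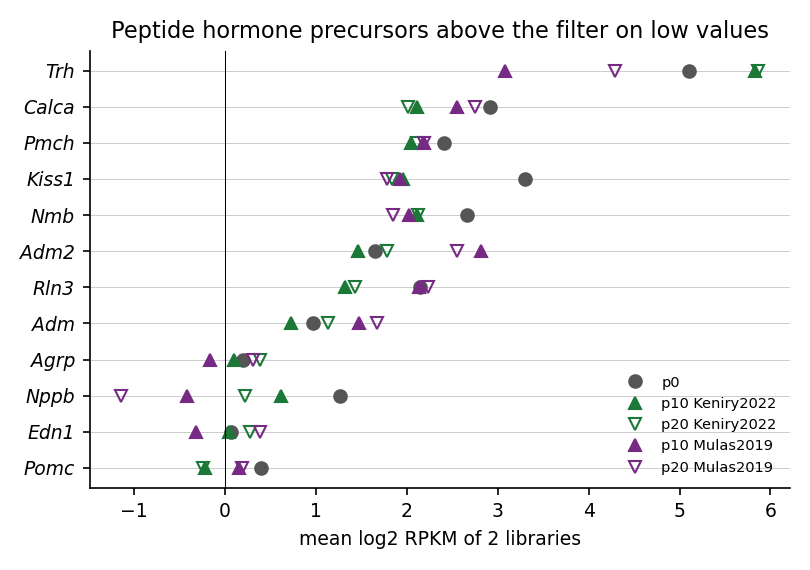
Mean log2 RPKM of the 2 libraries of each group for Trh and the 11 other listed peptide hormone precursors that passed the filter on low values, with symbols for the 5 groups. In Trh the Keniry2022 means (5.83 and 5.86) lie above p0 (5.11) and the Mulas2019 means (3.08 and 4.30) below it, and no other listed precursor has a group mean above that of Kiss1 at p0 (3.30).

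Of the 65 other precursors 11 were tested between the methods. Under Keniry2022 1 was higher, 4 were lower and 6 did not pass the test, with a median log2 difference of -0.11 against -0.00 over all features. Of all features tested, limma called 25.9% as higher and 25.5% as lower under Keniry2022. The level of Adm2 averaged 1.62 (SD 0.315, n = 4) in Keniry2022 and 2.69 (SD 0.222) in Mulas2019 libraries, and the difference was -1.07 (limma, adjusted p 0.000413). Rln3, which encodes relaxin 3, differed by -0.80 (adjusted p 0.00123), Adm, which encodes adrenomedullin, by -0.64 (0.00674), and Calca, the gene of calcitonin and its related peptide, by -0.59 (0.00127). The methods did not overlap in any of these 4 genes. Nppb, the precursor of B-type natriuretic peptide, was higher by 1.20 (adjusted p 0.0118), but its level was low (0.42 under Keniry2022 and -0.78 under Mulas2019) and the methods overlapped. The calls of Adm and Nppb ended in the model of all 10 libraries (adjusted p 0.102 and 0.06). Among 9 genes of granins and granule exocytosis, only Chga passed the filter. This gene encodes chromogranin A, a protein of hormone storage granules, and had levels of 2.70 and 2.37 under the methods in this order, which differ by 0.33 (adjusted p 0.00554, 0.067 in the model of all 10 libraries).

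Of 13 genes for processing of the precursor 9 were tested, with 0 higher, 3 lower and 6 not called under Keniry2022, and a median of -0.01, where 25.9% of all features were higher and 25.5% lower. Furin, a convertase of the secretory pathway, had a level of 1.80 with Keniry2022 and 2.01 with Mulas2019 culture, and the difference was -0.21 (limma, adjusted p 0.0241). Cpd, a carboxypeptidase, differed by -0.48 (adjusted p 0.000468). Pam, whose product amidates the hormone, had levels of 0.52 and 0.99, which differ by -0.47 (adjusted p 0.0232). The gene overlaps B230216N24Rik, and without a stated strand setting reads of overlapping features cannot be told apart. Furin and Pam each lost their call under 5 of 16 alternatives, among them quantile normalisation (adjusted p 0.188 and 0.124) and fits with 1 library left out. Cpd lost its call only in the model of all 10 libraries (adjusted p 0.107).

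The glutaminyl cyclases and the main carboxypeptidase of this route showed no call. Qpct was at 2.84 under Keniry2022 and 2.50 under Mulas2019 (difference 0.34, adjusted p 0.0608) and Qpctl at 2.16 and 2.08 (0.08, adjusted p 0.44). Cpe, the carboxypeptidase of neuroendocrine granules, was at 1.29 and 1.33 (-0.04, adjusted p 0.779). The convertases best known for cutting the Trh precursor were low. Pcsk1 lay between -0.93 and 0.26 in log2 RPKM and did not pass the filter, and Pcsk2 had 0 to 4 reads per library.

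RNA of the receptors was not detected at this depth. Trhr and Trhr2, the receptors, had 0 reads in all 10 libraries, which allows up to 3 reads in a library, and Trhde, the membrane peptidase that degrades the hormone, had 0 to 2 reads. Of the 6 genes of receptors and degradation, 3 were tested, and where 25.5% of all features were lower, 1 of the 3 was lower. This was Pgpep1, a cytosolic peptidase that removes the first residue of such peptides, at 3.01 under Keniry2022 and 3.26 under Mulas2019 (-0.25, limma, adjusted p 0.0035). Prep, prolyl endopeptidase, was abundant at 6.02 and 6.08 and was not called (-0.06, adjusted p 0.405).

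Of 30 genes of the thyroid hormone axis 15 were tested, with 1 higher, 3 lower and 11 not called, and a median of -0.10, beside 25.9% higher and 25.5% lower over all features. Thra, the thyroid hormone receptor alpha gene, averaged 1.02 (SD 0.164, n = 4) in Keniry2022 and 1.58 (SD 0.095) in Mulas2019 libraries, and the difference was -0.56 (limma, adjusted p 0.00103) with no overlap. Thra overlaps Nr1d1 on the opposite strand. Thrb, the receptor form that represses Trh in the hypothalamus, lay between -6.52 and -3.68 and was not tested. The coactivator genes Med1 (-0.22, adjusted p 0.00545) and Ncoa1 (-0.23, 0.0307) were lower, and Gps2, a subunit of a corepressor complex, was higher by 0.19 (0.0491). The calls of Ncoa1 and Gps2 were lost under 7 and 11 of 17 alternatives.

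Of 10 genes listed as transcription regulators of Trh in hypothalamic neurons, 6 were tested, with 1 higher, 1 lower and 4 not called. Sim1, Arnt2, Pou3f2 and Otp did not pass the filter, so the counts do not cover them. Atf1, a factor of the CREB family, had a level of 4.63 with Keniry2022 and 4.20 with Mulas2019 culture, and its higher level (0.43, limma, adjusted p 0.000149) kept its call under all 17 alternatives. Creb1, at 3.15 and 3.36, was lower (-0.21, adjusted p 0.033), and its call was lost under 7 of 17. Stat3 was at 3.45 and 3.43 and was not called (0.02, adjusted p 0.793). Over all 6 lists, 45 of 133 genes in the table were tested and 16 were called (35.6%), 4 higher and 12 lower under Keniry2022, with differences between -1.07 and 1.20 and a median of -0.05. The share over all features was 51.5%. In the model of all 10 libraries 8 genes of the lists were called, where 2225 of all 11561 features tested were called.

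**Figure D4:**
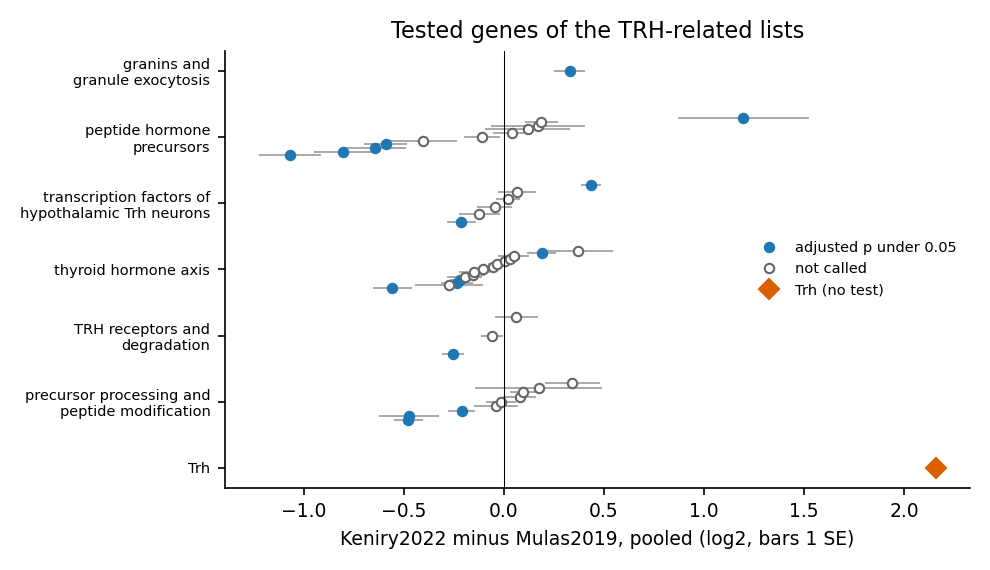
Difference between Keniry2022 and Mulas2019 in log2 RPKM for the tested genes of the 6 lists around Trh, by list, with bars of 1 SE, filled points for an adjusted p under 0.05 and a diamond for Trh, which has no test. Of the 45 genes 4 are called as higher and 12 as lower, within -1.07 to 1.20, and Trh stands at 2.16.

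Markers of hypothalamic neurons and of endocrine cells were at or near 0. The 7 markers of hypothalamic neurons summed to between 0.208 and 0.259 RPKM, with Avp and Crh at 0 reads in all libraries, the 5 of thyroid follicle cells to between 0.153 and 0.402, and the 5 of pancreatic islets to between 0.109 and 0.128. In these sums 0.9 reads stand in for 0 reads, so part of each sum is this floor and not measured RNA. None of these markers passed the filter. Of 6 neural markers, 2 were tested, and they went opposite ways. Tubb3, a tubulin gene, was higher under Keniry2022 by 0.71 (6.49 against 5.78, limma, adjusted p 3.56e-05), and Nes, which encodes nestin, was lower (2.05 against 2.47, difference -0.42, adjusted p 0.0151). The summed level of the list, 90.2 to 101 RPKM under Keniry2022, 55.7 to 65.0 under Mulas2019 and 75.1 to 90.5 at p0, was mostly that of Tubb3, and the part of such cells in the Trh result was not tested. Trophoblast markers summed to 20.7 to 25.2 RPKM under Keniry2022 and 24.9 to 33.2 under Mulas2019, primed epiblast markers lay at 45.4 to 47.7 against 37.7 to 46.9, and primitive endoderm markers stayed within 1.64 to 2.59 and fibroblast markers within 0.366 to 1.05 in all libraries.

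The genes around Trh on chromosome 6 were examined to see whether they moved with it. The 5 nearest tested features on each side had differences between -0.20 and 0.35 and a median of 0.03, and 5 of the 10 were called (50%), 2 higher and 3 lower under Keniry2022, beside 51.5% of all features. The nearest one, Zfyve20, an endosomal trafficking gene whose transcript starts 29.7 kb from that of Trh, differed by 0.09 (limma, adjusted p 0.114). Mrps25, a mitochondrial ribosomal protein gene 60.6 kb away, differed by 0.05 (0.451) and Slc6a6, the taurine transporter gene 560.6 kb away, by -0.08 (0.233). Nr2c2, an orphan nuclear receptor gene that overlaps Mrps25, was lower by 0.16 (difference -0.16, adjusted p 0.0324). C130022K22Rik, 366.6 kb away, was higher by 0.35 (0.00575), the largest difference of the 10. On the other side, A730049H05Rik (0.11, adjusted p 0.605) and Adamts9, a secreted metalloprotease gene (0.00, 0.978), were not called. Farther out, Magi1, a scaffold protein gene, was lower by 0.20 (-0.20, adjusted p 0.0109). Slc25a26, a mitochondrial carrier gene, and Lrig1, a membrane receptor regulator with which it overlaps, went opposite ways (0.25, 0.00744, and -0.17, 0.0281). The calls of Nr2c2 and Lrig1 were each lost under 6 of 17 alternatives. Only C130022K22Rik was called in the model of all 10 libraries, where 2225 of all 11561 features tested were called.

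**Figure D5:**
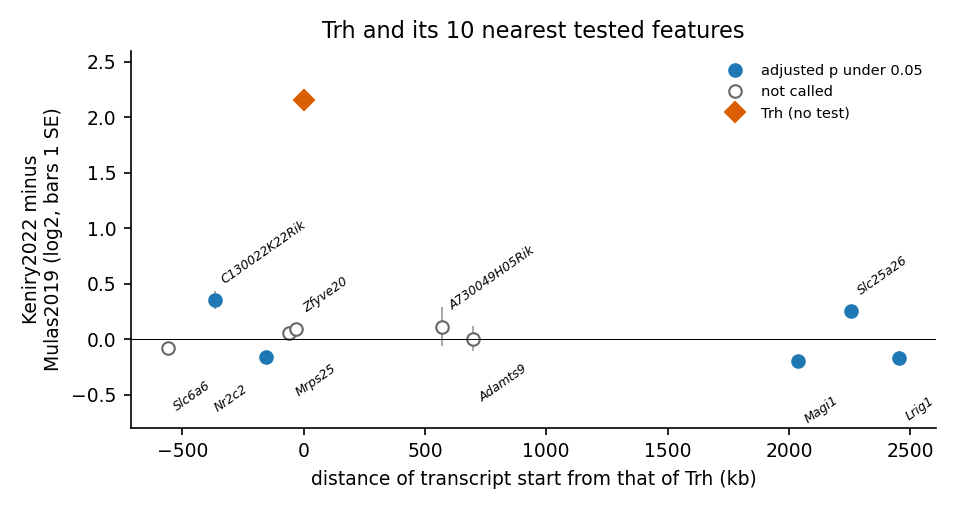
Difference between Keniry2022 and Mulas2019 in log2 RPKM for Trh and the 5 nearest tested features on each side, against the distance of the transcript start from that of Trh in kb, with bars of 1 SE and filled points for an adjusted p under 0.05. Trh is at 2.16 and the 10 neighbours lie between -0.20 and 0.35.

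Other genes shared the pattern of Trh over the 10 libraries at smaller size. Likeness was measured by Pearson's r with Trh over 10 libraries for 6198 features with a mean log2 of at least 3. It is a description, because the libraries share 2 lines, the culture groups and the choice of Trh. The median r was 0.221, with 77 features (1.24%) above 0.9 and 53 (0.855%) below -0.9. The highest r was that of Pdha1, the X-linked subunit gene of pyruvate dehydrogenase, at 0.983. Pdha1 was at 6.62 and 6.66 at p10 and p20 under Keniry2022, 6.52 at p0, and 6.01 and 6.29 under Mulas2019, in group means of log2 RPKM. This is the same order of the groups as in Trh, with a pooled difference of 0.49 in place of 2.16. After the mean of each method was removed, r over the 8 cultured libraries was 0.960. These libraries are among the 10 by which Pdha1 was picked, and in the same measure 104 features were above 0.9 and 111 below -0.9. Pdha1 overlaps Map3k15.

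The next 4 were Abcf3, a translation-related ATPase gene (r 0.971, pooled difference 0.34), Glul, the glutamine synthetase gene (0.968, 0.59), Eif2b5, a subunit of the exchange factor of translation initiation (0.968, 0.32), and Nlrp4f, an oocyte-enriched NLR family gene (0.967, 0.74). Within the methods their r was between 0.874 and 0.915. In all of them the p10 Mulas2019 mean was the lowest of the 5 groups, as in Trh. Glul was at 4.54 and 4.45 under Keniry2022, 4.37 at p0, and 3.74 and 4.05 under Mulas2019.

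The 5 features most opposed to Trh were Spats2 (r -0.978, pooled difference -0.71), Aacs, which encodes a synthetase that activates acetoacetate (-0.973, -0.34), Ptdss2, a phosphatidylserine synthase gene (-0.971, -0.20), Psat1, an enzyme gene of serine synthesis (-0.969, -0.30), and Pi4k2a, a phosphatidylinositol kinase gene (-0.968, -0.43). Spats2 was at 4.56 and 4.69 under Keniry2022, 4.75 at p0, and 5.52 and 5.15 under Mulas2019. It was thus highest in the group where Trh was lowest, and its r within the methods was -0.921.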

How the data were processed

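RNA-seq of 10 libraries of male mESCs was used, in 5 groups of 2 by the labels. Single-end reads had been trimmed, aligned to mm10 and counted in SeqMonk by its RNA-seq pipeline. The aligner is HISAT2 in the methods of the study but TopHat2 2.0.12 in the submitters' processing notes. An annotation release or strand setting is not given in the sources used here. In all, 1 table of log2 values for 25965 features, named as log CPM, was deposited by the authors. The values were read as log2 RPKM, since the floor of a feature depends on its length and equals 0.9 reads entered in place of 0. In 6624 features all libraries were at this floor. Library totals were worked out from these floors with exon lengths of GENCODE vM21. No pseudocount was added, and 0 columns of values were left unused. Read counts of a gene are given only where its GENCODE length gave whole reads in all libraries within 0.1 reads, as it did for 13191 of 22710 features. Other named genes carry log2 RPKM only.

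Trh and the gene lists were chosen with earlier results of these data known. The deposited log2 values were tested with limma 3.58.1 in R 4.3.3 (moderated, intensity trend, two-sided). P-values were adjusted by Benjamini-Hochberg across the features of each fit, and 0.05 was the threshold. Features entered a fit if 50% or more of its libraries had a log2 level over 0. The methods were compared over p10 and p20 pooled, as in the study, which used voom on counts. The passage contrasts, the interaction and the comparison with p0 came from 1 model of all 10 libraries and 5 groups. Trh was not tested between the methods. The genes named are Trh, the features next to it in size, the 5 most and least correlated features, the 10 neighbours, the called members of each list (at most 6) and a set of pathway genes fixed by name. Precursors next to Trh in level and the markers were named from their lists after their values were seen. Promoters and coding units were read from RefSeq and GENCODE sequence, and no protein sequence was used here. Tested on simulated data (11654 features), the pooled fit found 78% of changes of 0.5 and 99% of changes of 1 in log2, and it called 11 unchanged features. For the passage contrast under Mulas2019 (11561 features) it was 19% and 79%, with 12.

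The replicate numbers stand for the 2 lines by the methods of the study. Deviations of replicate 1 from replicate 2 correlated between groups with r of 0.171 to 0.630, except in p20 Keniry2022, where r was -0.698 to -0.118.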

Additional observations from a re-analysis of the deposited data

Results flagged for a closer look

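A sample far from the other 3 of its method was looked for in 39 features named here, in 78 groups of 4 libraries, by the 95% critical value of Dixon's ratio. Chance flags about 1 in 20 such groups, and 4 were found, none of them in Trh. Under Mulas2019, p10 replicate 1 was low in Glul at 3.51 (the others 3.98 to 4.07, ratio 0.848) and in Zfyve20 at 2.81 (2.89 to 2.91, ratio 0.830). This is also the library with the lowest Trh. Under Mulas2019, p20 replicate 1 was low in Gps2 at 2.86 (3.02 to 3.03, ratio 0.933). Under Keniry2022, p10 replicate 2 was low in Adm2 at 1.15 (1.73 to 1.83, ratio 0.852), and it is the library with the highest Trh.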

How the results depend on the processing

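Under 17 alternatives the difference of Trh between the methods was 1.81 to 2.40 with 1 library left out and 2.06 to 2.17 under the others. Trh was chosen for this difference and the methods did not overlap, so leaving out 1 library could not turn its sign. The increase under Mulas2019 from p10 to p20 kept its sign under 19 alternatives (0.77 to 1.66 with 1 library left out, adjusted p 0.0619 to 1) and was called only with library quality weights (1.22, adjusted p 0.0411); without the p0 libraries its adjusted p was 0.0628. The change under Keniry2022 was -0.31 to 0.39 with 1 library left out. The interaction was -1.63 to -0.74 and the cultured groups minus p0 -0.45 to -0.23 with 1 library left out, neither called under any alternative. Between the methods, the calls in the 6 lists numbered 10 to 17, among the neighbours 3 to 5 and over all features 5049 to 5659 with 1 library left out. The counts were 10 in the lists and 3 among the neighbours without p10 Keniry2022 replicate 1, and 3 among the neighbours without p10 Keniry2022 replicate 2 or p20 Mulas2019 replicate 1. In the model of all 10 libraries, which takes the p0 pair into the spread, they were 8, 1 and 2225. Of 31 genes named for a call or for likeness to Trh, 17 kept their call under every alternative in which they were tested (16 or 17 alternatives) and 0 changed sign. With the replicate block, Trh differed by 2.16, 15 genes of the lists, 5 neighbours and 5749 features were called, and the increase under Mulas2019 had an adjusted p of 0.482. With the p20 Keniry2022 numbers exchanged in the block, 5780 features were called. Either block ended the call of Gps2 (adjusted p 0.05 and 0.0624) and no other call of these results. Depth did not limit the Trh values, which rest on at least 208 reads, but 2 libraries a group limit every contrast of passages.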
